A study of Mus musculus with 6 samples.

Results

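Striatal dopamine-response genes were examined in the brains of the offspring of dams on a maternal high-fat diet (MHFD) or a maternal normal diet (MND). The 4 genes were chosen by name, as rat Ensembl identifiers, out of 32623 genes in the table: Drd1 (ENSRNOG00000023688), Drd2 (ENSRNOG00000008428), Ppp1r1b (ENSRNOG00000028404) and Penk (ENSRNOG00000008943). All 4 were in the table and passed the filter on low counts, which left 16776 genes. The symbols come from the list that chose the genes, since the table holds identifiers alone. Dams of the MHFD group had the high-fat diet from before mating until the end of lactation, and those of the MND group had normal feed throughout. Brains of 3 pups per group were collected on postnatal day 21, the last day of lactation, and the total RNA of each was sequenced as its own library. No transgene or drug was used in these 6 animals. The sample labels name C57BL/6 mice and the study's methods Sprague-Dawley rats, and every identifier in the table is a rat one. Litter, sex and the part of the brain taken for RNA are not given in the sources used here, so p-values measure the spread between these samples only. The design targets no gene whose level could check which libraries belong to which diet, so each direction given here rests on the names of the table's columns. The sources used here do not settle whether those names could be exchanged between the diets, and every direction would turn if they were.

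The striatum is the main target of the dopamine neurons of the midbrain, and most of its neurons are medium spiny neurons. These neurons form the direct pathway, which carries the D1 receptor, and the indirect pathway, which carries the D2 receptor together with enkephalin. Drd1 encodes the D1 receptor, which raises cyclic AMP when dopamine binds, and Drd2 encodes the D2 receptor, which lowers it and is also made by dopamine neurons and pituitary cells. Ppp1r1b encodes DARPP, an inhibitor of protein phosphatase that is switched by the cyclic AMP signal in medium spiny neurons of both pathways. Penk encodes proenkephalin, the precursor of the enkephalin peptides. In whole tissue, fewer cells of a type and less RNA per cell cannot be told apart, nor can either be told from a dissection that held less striatum.

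Total counts lay between 43679373 and 61385917 per library. Counts per 1000000 counts of the library (CPM) were scaled with TMM normalization, whose factors lay between 0.985 and 1.01. CPM is not divided by transcript length, so levels are compared between libraries and not between genes. As a mark of depth, the smallest count of the 4 genes was 99, for Drd2 in MND replicate 3. It corresponds to 1.88 CPM of the whole library, with an exact (Clopper-Pearson) 95% interval of 1.53 to 2.29. Genes pile up at 4 counts in every library, and if a fragment added 4 counts, the interval would be 1.23 to 2.81. Such intervals cover counting error only.

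By the names of the columns, all 4 genes were higher in the mean of the MHFD brains than in that of the MND brains, by 2.51-fold for Ppp1r1b to 4.58-fold for Drd1. The MND brains were not alike. In each gene, MND replicates 2 and 3 held the 2 lowest values of the 6 libraries, and MND replicate 1 lay in or next to the MHFD range. None of the 4 genes had an adjusted p under 0.05 in edgeR's quasi-likelihood test, and over all genes 0.00596% did. At an unadjusted p under 0.05 and higher in the MHFD group were 2 of the 4, Drd1 and Ppp1r1b, beside 4.9% of all genes tested. The groups did not overlap, with MHFD higher, for the same 2 genes, beside 7.12% of all genes tested. At least 2-fold higher in the fitted change were 4 of 4, beside 3.37% of all genes. The median log2 fold change of the 4 genes was 1.74, and that of all genes tested was 0.0023.

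**Figure D1:**
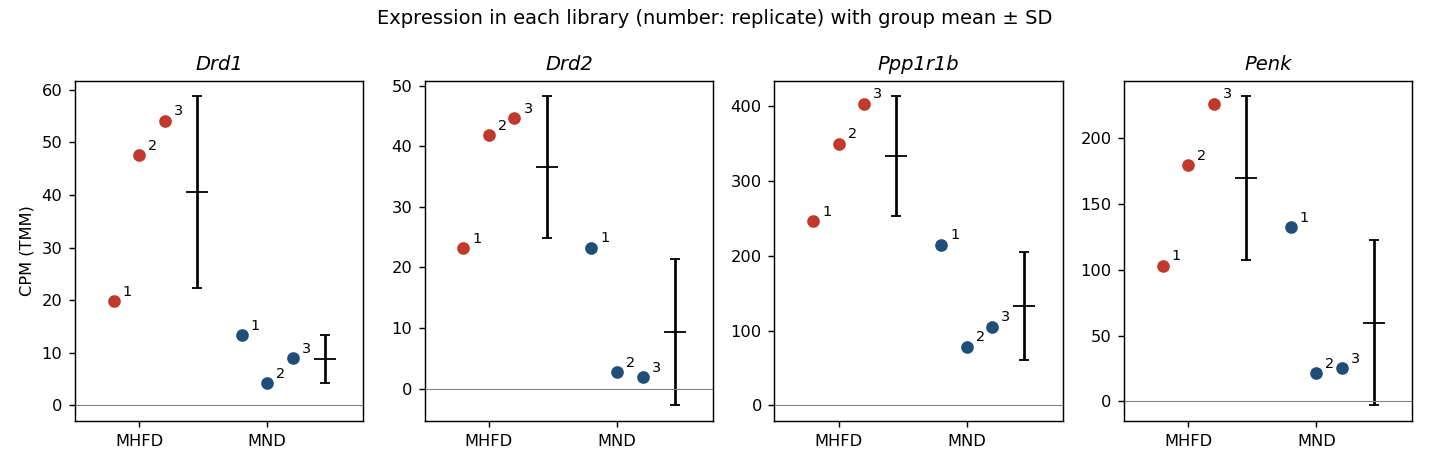
CPM (vertical axis, linear, TMM-normalized) of Drd1, Drd2, Ppp1r1b and Penk in each MHFD (red) and MND (blue) library, numbered by replicate, with the group mean ± SD (n = 3) as a black bar. For Drd2 and Penk the point of MND replicate 1 lies within the MHFD points, while MND replicates 2 and 3 lie far under them.

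Of the receptors, Drd1 was the one whose groups did not overlap. It stood at 19.8, 47.5 and 54.2 CPM in the MHFD brains and at 13.3, 4.21 and 8.96 CPM in the MND brains, each in replicate order. Every MHFD brain was above every MND brain, and the nearest values across the groups were those of MHFD replicate 1 and MND replicate 1. The MHFD brains averaged 40.5 ± 18.2 CPM and the MND brains 8.83 ± 4.55 CPM (mean ± SD, n = 3 per group). The log2 fold change was 2.20 with a standard error of 0.51 and a 95% interval of 0.99 to 3.40, and the edgeR quasi-likelihood fit gave an unadjusted p of 0.00362 and an adjusted p of 0.536. By an exact permutation test of the mean log2 CPM (two-sided), p was 0.1, the smallest that 3 animals against 3 allow. Drd1 ranked 112 among the 16776 genes by p. With each library left out in turn its log2 fold change stayed between 1.86 and 2.62.

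Drd2, the receptor of the indirect pathway, differed most among the MND brains themselves. It was at 23.2, 41.9 and 44.6 CPM in the MHFD brains and at 23.3, 2.73 and 1.91 CPM in the MND brains, each in replicate order. MND replicate 1 stood level with MHFD replicate 1 and was 8.53-fold above the higher of the other MND brains, so the groups overlapped. The MHFD brains averaged 36.5 ± 11.7 CPM and the MND brains 9.30 ± 12.1 CPM (mean ± SD, n = 3 per group), a spread in the MND group that is larger than its mean. The log2 fold change was 1.97 (standard error 0.92, edgeR quasi-likelihood adjusted p = 0.596), and its 95% interval, from -0.21 to 4.14, held 0. The exact permutation test gave p = 0.2. Without MND replicate 1, the log2 fold change was 3.98 and the unadjusted p of edgeR's test 5.21e-05, with an adjusted p of 0.149. Without MND replicate 2 or 3, it was 1.53 or 1.49.

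Ppp1r1b, which acts downstream of both receptors, had the smallest fold difference. It stood at 246.6, 349.8 and 403.7 CPM in the MHFD brains and at 215.1, 78.4 and 105.3 CPM in the MND brains, each in replicate order. The groups did not overlap, but MND replicate 1 was nearer to MHFD replicate 1 than to the other MND brains. The MHFD brains averaged 333.4 ± 79.8 CPM and the MND brains 133.0 ± 72.4 CPM (mean ± SD, n = 3 per group). The log2 fold change was 1.33 (standard error 0.38, 95% interval 0.41 to 2.24), with an unadjusted p of 0.0110 and an adjusted p of 0.539 by the edgeR quasi-likelihood method. The exact permutation test gave p = 0.1. The log2 fold change ran from 1.06 without MND replicate 2 to 1.86 without MND replicate 1.

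Penk, the peptide gene of the indirect pathway, overlapped between the groups as Drd2 did. It was at 103.2, 179.4 and 226.1 CPM in the MHFD brains and at 132.2, 21.6 and 25.5 CPM in the MND brains, each in replicate order. MND replicate 1 exceeded MHFD replicate 1, and it was 5.19-fold above the higher of the other MND brains. The MHFD brains averaged 169.5 ± 62.1 CPM and the MND brains 59.8 ± 62.8 CPM (mean ± SD, n = 3 per group). The log2 fold change was 1.50 (standard error 0.72, edgeR quasi-likelihood adjusted p = 0.608), and its 95% interval, from -0.21 to 3.21, held 0. The exact permutation test gave p = 0.2. Without MND replicate 1 the log2 fold change was 2.85, with an unadjusted p of 0.000239 and an adjusted p of 0.367 from edgeR's test.

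**Figure D2:**
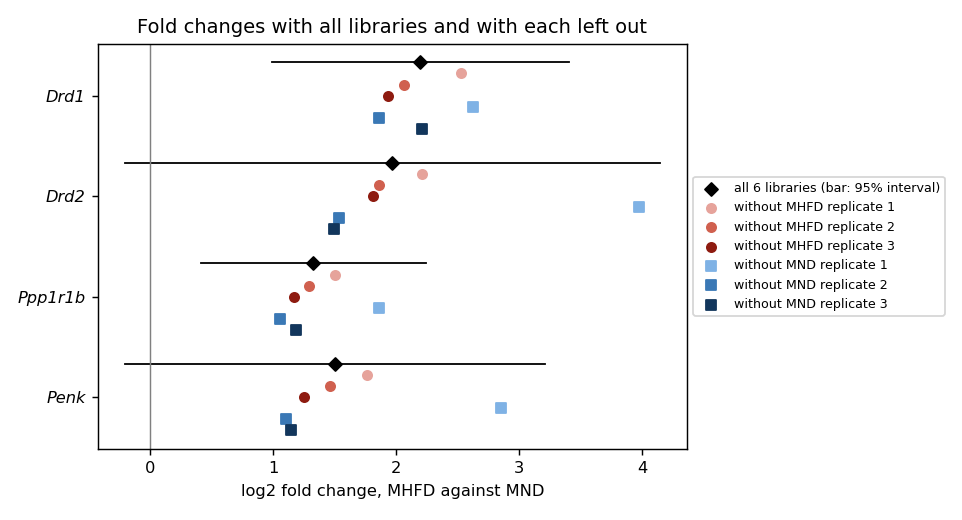
Log2 fold change of each gene, MHFD against MND (horizontal axis), fitted by edgeR with all 6 libraries (black diamond, bar: 95% interval) and with each MHFD (circles) or MND (squares) library left out. All points lie above 0, the bars of Drd2 and Penk cross 0, and the point without MND replicate 1 lies farthest to the right for each gene.

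The 4 genes moved together across the libraries. MHFD replicate 3 was the highest library and MHFD replicate 2 the second in 4 of 4 genes. MHFD replicate 1 and MND replicate 1 held the middle places in 4 of 4 genes, with MND replicate 1 the higher of the pair in 2, Drd2 and Penk. MND replicates 2 and 3 were the lowest in 4 of 4 genes. How many other genes had this order of libraries was not counted. With each gene centred on its own mean log2 CPM, the mean over the 4 genes was 0.41, 1.27 and 1.47 in the MHFD brains, in replicate order. In the MND brains it was 0.31, -1.89 and -1.58. This shared mean held 89.8% of the variance of the 4 genes over the 6 libraries. Each gene was itself part of the mean, which tends to raise this share and to shrink what is left of the gene. For Penk, the SD of log2 CPM over the 6 libraries was 1.45 before and 0.19 after the shared mean was taken away, and for Drd2 it was 1.99 before and 0.66 after. For Drd1 it was 1.42 before and 0.45 after, and for Ppp1r1b 0.94 before and 0.49 after. The shared mean was taken away at the same size from every gene. Ppp1r1b, with the smallest SD, and Drd2, with the largest, thus keep a remainder even where they follow the others. A pattern scaled to each gene (first principal component) held 95.8% of the variance. Neither share of variance was computed for other sets of genes.

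The libraries did not form an even gradient. For Drd2 the widest step between neighbours in the order of libraries was 8.39-fold, and for Penk and Ppp1r1b it was 4.04-fold and 2.04-fold. In each of these genes the step parted MND replicates 2 and 3 from the other libraries, and it was wider than the range on either side of it. For Drd1 the widest step, 2.40-fold, lay elsewhere, between MHFD replicates 1 and 2. As most of the genes set the libraries in separate clusters of fewer than 6, no correlation between pairs of them is given as a result over the pooled libraries.

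**Figure D3:**
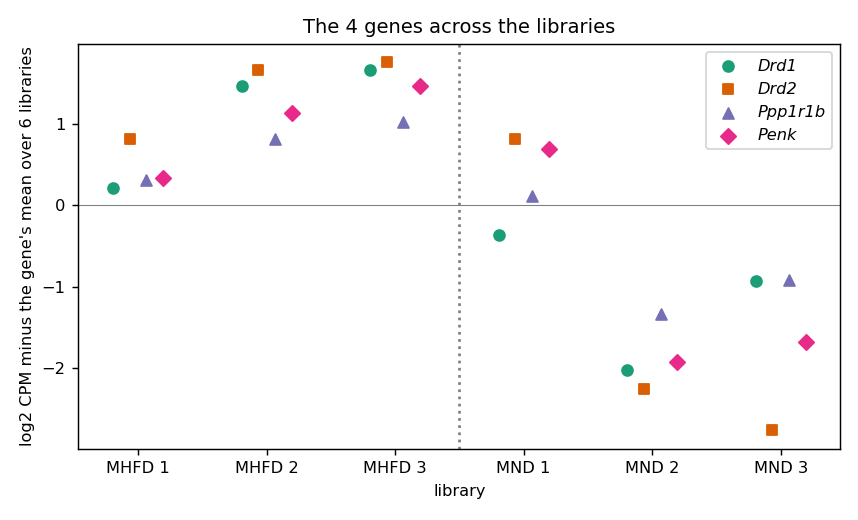
Log2 CPM of Drd1, Drd2, Ppp1r1b and Penk minus each gene's mean over the 6 libraries (vertical axis), in each MHFD and MND library (horizontal axis, groups parted by the dotted line). The 4 markers sit above 0 in every MHFD library and below 0 in MND replicates 2 and 3, and in MND replicate 1 Drd1 is below 0 and the others are above it.

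The genes were not exactly proportional to each other, and the ratio of the receptors varied more among the MND brains than among the MHFD brains. The ratio of Drd1 to Drd2, relative to its geometric mean over the 6 libraries, was 0.659, 0.875 and 0.935 in the MHFD brains in replicate order. In the MND brains it was 0.441, 1.18 and 3.56, an 8.06-fold range with the highest and the lowest value both in MND brains. The ratio of Drd2 to Ppp1r1b had a 6.47-fold range over the libraries. Its SD on the log2 scale was the larger, 1.12 against 1.02 for Drd1 to Drd2. The ratio of Drd2 to Penk, both genes of the indirect pathway, was 1.39, 1.44 and 1.22 in the MHFD brains and 1.09, 0.791 and 0.473 in the MND brains, in replicate order. Its 3.06-fold range was wider than that of Drd1 to Ppp1r1b, 2.52-fold, and of Ppp1r1b to Penk, 2.54-fold. Such a range also widens where the genes of a pair swing by different amounts, so it does not rank how closely pairs track. Of the 6 pairs of genes, Drd2 to Penk was the one whose ratio did not overlap between groups. Drd2 was 1.82-fold higher relative to Penk in the MHFD brains. The exact permutation test gave p = 0.1 for it, or 0.4 after adjustment over the 6 pairs. The ratio of Ppp1r1b to Penk was 0.986, 0.804 and 0.736 in the MHFD brains and 0.671, 1.50 and 1.70 in the MND brains, in the same order. Relative to Penk, Ppp1r1b was thus highest in MND replicates 2 and 3, and the groups overlapped (exact permutation test, p = 0.4 before adjustment).

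The spread of these genes within a group was large beside that of other genes. Among the 14498 genes that averaged 1 CPM or more, the median SD of log2 CPM over 3 libraries was 0.16 in the MND group and 0.19 in the MHFD group. In the MND group the SD was 1.94 for Drd2, 1.44 for Penk, 0.84 for Drd1 and 0.75 for Ppp1r1b. A larger MND SD than that of Drd2 was found for 1.02% of the genes, and than that of Ppp1r1b for 5.1%. In the MHFD group the SD was 0.79 for Drd1, 0.58 for Penk, 0.52 for Drd2 and 0.37 for Ppp1r1b. Larger MHFD values than these were found for 4.73% of the genes for Drd1 and 21.5% for Ppp1r1b. MHFD replicate 1 was the low brain of its group in every gene, from 1.42-fold under the lower of the other MHFD brains for Ppp1r1b to 2.40-fold for Drd1.

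**Figure D4:**
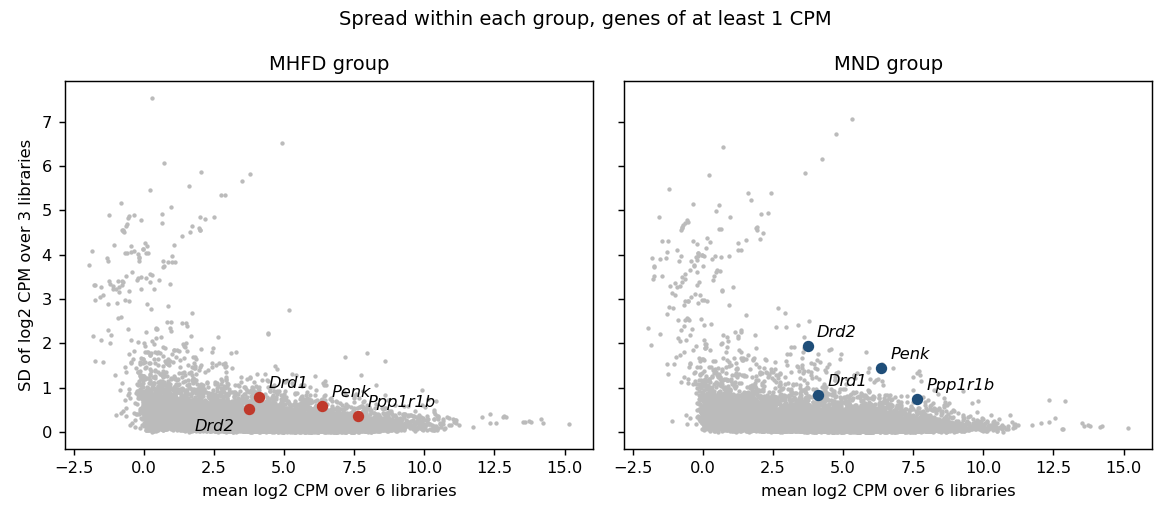
SD of log2 CPM over the 3 libraries of the MHFD group (left) and of the MND group (right) against the mean log2 CPM over 6 libraries, for genes that averaged 1 CPM or more (grey) and for Drd1, Drd2, Ppp1r1b and Penk (coloured). In the MND group Drd2 and Penk stand above most genes of like level, at 1.94 and 1.44.

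Other genes were ranked by how closely they followed the shared mean of the 4 genes. Of the 14494 other genes that averaged 1 CPM or more, 210 had a Pearson r of at least 0.9 to it over the 6 libraries, and 68 had at least 0.95. In the opposite direction, with r negative and of at least these sizes, were 83 and 18 genes. The r serves here only to rank genes by likeness: it is taken over the same clusters of libraries, and genes are not independent replicates. The most alike was ENSRNOG00000003800, with r of 0.997 over 6 libraries. It was at 40.8, 82.0 and 77.6 CPM in the MHFD brains and at 35.6, 5.88 and 8.67 CPM in the MND brains, each in replicate order. It was chosen for this likeness, so its pattern is a description. The next was ENSRNOG00000002229, with r of 0.994 over 6 libraries. It was at 217.0, 317.8 and 315.8 CPM in the MHFD brains and at 214.2, 120.9 and 126.9 CPM in the MND brains, each in replicate order. Neither had an adjusted p under 0.05 in edgeR's test, with 0.542 for the first and 0.539 for the second.

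Over the libraries of both groups, the order in these genes did not run with depth. Within the MHFD group it ran opposite to depth. Within the MND group the shared mean ran with depth, as did each gene except Drd2. Any effect of depth was not tested. The deepest libraries, MHFD replicate 1 with 61385917 counts and MND replicate 1 with 60640093, held the middle places. MND replicates 2 and 3, the lowest, had 51874000 and 52568459 counts, and MHFD replicates 2 and 3, the highest, had 46992467 and 43679373. The 4 genes together took 0.0392%, 0.0625% and 0.073% of all counts of the MHFD libraries and 0.0384%, 0.0107% and 0.014% of those of the MND libraries, in replicate order. Whether the share of striatum in the tissue differed between the libraries was not tested. Other striatal genes and markers of other brain regions and cell types were not examined, as the identifiers are not paired with symbols here.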

How the data were processed

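Brain RNA of 3 MHFD and 3 MND offspring was extracted with Trizol and sequenced on Illumina libraries, 1 per animal. The authors deposited whole counts per gene, without normalization. The submitters' processing notes name Bowtie and mm10 with no version or role, although the identifiers are of the rat. The counting program and annotation are not given in the sources used here. None of the 32623 identifiers matched the mouse reference tables at hand, so positions and sequences are not given.

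Columns were matched to samples by name. No pair of libraries within a group was a copy (chi-square per gene at least 29.7). Genes were kept with filterByExpr (minimum count 10, minimum total 15), normalized by TMM and tested in R 4.3.3 with edgeR 4.0.16's quasi-likelihood test, with no term besides the diet group, and with Benjamini-Hochberg adjustment over all genes tested. Standard errors were derived from the log2 fold change and its F statistic, and log2 CPM used a prior count of 2. The programs were tested on simulated counts. Alternatives used DESeq2 1.42.0, limma 3.58.1 (voom), edgeR's likelihood-ratio test, other scalings and filters, counts divided by 4, a replicate block and each library left out. Named were the 4 genes and the 2 genes of at least 1 CPM most like their mean. The genes and lists were chosen with earlier results of these data known.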

Additional observations from a re-analysis of the deposited data

How the results depend on the processing

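All 4 genes were higher in the MHFD group under each of the 16 alternatives. An adjusted p under 0.05 was reached by Drd1 with DESeq2's Wald test (log2 fold change 2.20, adjusted p = 0.000652) and with edgeR's likelihood-ratio test (2.20, adjusted p = 0.00782), and by Ppp1r1b with DESeq2's Wald test (1.32, adjusted p = 0.0201). Over all alternatives the highest adjusted p was 0.951 for each gene. The lowest was 0.000652 for Drd1, 0.0201 for Ppp1r1b, 0.149 for Drd2 and 0.344 for Penk.

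Leaving out each library in turn gave log2 fold changes of 1.86 to 2.62 for Drd1, 1.49 to 3.98 for Drd2, 1.06 to 1.86 for Ppp1r1b and 1.10 to 2.85 for Penk. The highest of each came without MND replicate 1. Drd1 and Ppp1r1b kept an unadjusted p under 0.05 in each of these 6 fits. Of all genes, 4.77% to 17% (without MHFD replicate 1) were under it, and 8.68% with all libraries. Drd2 and Penk were in 1, that without MND replicate 1 (5.11%).

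With the replicate number as a block, the log2 fold change was 2.24 for Drd1, 2.96 for Drd2, 1.45 for Ppp1r1b and 2.06 for Penk, with adjusted p of 0.768, 0.773, 0.768 and 0.783 from edgeR's test. Offsets of same-numbered libraries from their group mean correlated over genes at -0.0866, 0.0011 and -0.144 for numbers 1, 2 and 3. A shared batch was not tested. With limma-voom the log2 fold change was 2.71 for Drd2 and 1.93 for Penk, at unadjusted p of 0.0104 and 0.0247 (8.49% of genes under 0.05). The unadjusted p was also under 0.05 for Drd2 and Penk with the likelihood-ratio test, at 0.0269 and 0.0318, and for Drd2 with the replicate block, at 0.0467. The cause was not tested.

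An adjusted p under 0.05 was reached by 1 gene in the quasi-likelihood test, by 198 in DESeq2 and by 98 in the likelihood-ratio test. It was reached by 0 with limma-voom, the replicate block and the counts divided by 4. With each library left out it ran from 0 to 28, and the number at an unadjusted p under 0.05, 1456 in all libraries, from 818 to 2904. The most of each came without MHFD replicate 1. The planned list of striatal genes was not run for want of symbols, and the planned correlations between pairs of genes are not given, as the libraries fell into clusters of fewer than 6.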
